A study of Homo sapiens with 9 samples.

Results

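The genes described here are 10 genes of the cellular response to low oxygen: HIF1A, VEGFA, NDRG1, CA9, ADM, EGLN1, EGLN3, BNIP3, BNIP3L and SLC2A1. They were taken by symbol from a table of 60564 gene identifiers measured by RNA-seq in BxPC3, an established human cell line of pancreatic ductal adenocarcinoma, and all 10 were found there. The 9 libraries form 3 groups of 3. One group received vehicle, one was transfected with STAT3 siRNA (small interfering RNA that depletes the STAT3 transcript), and one received WB436B at 0.1 µM, a compound identified by a code name. All cells were grown in RPMI medium with fetal bovine serum and antibiotics under a humidified atmosphere, and no group is labelled as hypoxic. No non-targeting siRNA is named, so the effect of transfection and that of STAT3 loss cannot be told apart in the siRNA group. The sources used here do not give the identity of the vehicle, the time under each treatment or the oxygen level. The labels call the libraries of a group biological replicates without naming separate cultures, so each p-value reflects variation among these libraries, which may be technical.

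HIF-1 is a transcription factor made of an oxygen-regulated alpha subunit, encoded by HIF1A, and a stable partner encoded by ARNT. When oxygen is present, prolyl hydroxylases of the EGLN family mark the alpha subunit, the VHL ubiquitin ligase recognises the mark, and the protein is degraded. When oxygen is scarce the alpha subunit is spared and turns on genes of glucose uptake, blood vessel growth, acid export and mitochondrial turnover. Pancreatic ductal adenocarcinoma is known as a poorly perfused tumour, and STAT3 is known to act with HIF-1 at some shared targets. The alpha subunit is controlled mainly as a protein, which RNA-seq does not measure.

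The core letters of the HIF binding motif are ACGTG or GCGTG, and promoters of members that hold them are printed to show what the targets carry before the values are read. RefSeq promoters (GRCh38.p14) were found for 7 of the 10 genes, namely HIF1A, CA9, ADM, EGLN1, EGLN3, BNIP3 and SLC2A1. VEGFA, NDRG1 and BNIP3L were not searched. Either motif, on either strand of the 250 bases before the start, was found in 5 of the 8 promoters listed for these genes (HIF1A has 2), against 43.2% of 35116 promoters of that length. ACGTG alone was found in 18.5% of all promoters and GCGTG in 32.2%. The stretches below run 5′ to 3′ along the gene's strand, and capitals mark a motif or its reverse complement, so the same site can read as CACGT or CACGC.
CA9, chr9:35673868-35673927, plus strand: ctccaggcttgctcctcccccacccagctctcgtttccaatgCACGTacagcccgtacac
EGLN1, chr1:231422288-231422347, minus strand: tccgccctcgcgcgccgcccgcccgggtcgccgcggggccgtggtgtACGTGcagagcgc
ADM, chr11:10304943-10305002, plus strand: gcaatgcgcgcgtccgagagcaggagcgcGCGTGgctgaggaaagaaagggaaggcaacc
BNIP3, chr10:131982004-131982083, minus strand: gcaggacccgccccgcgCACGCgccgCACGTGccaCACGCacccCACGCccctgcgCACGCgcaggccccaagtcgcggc
HIF1A, chr14:61695279-61695338, plus strand: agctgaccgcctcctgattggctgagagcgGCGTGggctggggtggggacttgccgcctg
The CA9 match begins 18 bases before the start and that of EGLN1 13 bases before it. The match of ADM begins 101 bases before the start, and that of HIF1A 204 bases before the start of its upstream promoter, while its other listed promoter held none. BNIP3 carried 6 matches, 2 of which overlap as CACGTG, and 0.646% of all promoters held 6 or more. No match was found in the windows of EGLN3 and SLC2A1, which says only that these letters are not in those 250 bases.

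Levels are given as FPKM, fragments normalised to transcript length and to the mapped fragments of the library. Tests used log2(FPKM + 1) of genes that reached 1 FPKM in 3 or more of the 9 libraries, which were 12747 identifiers and 8 of the 10 genes. CA9 and BNIP3 did not pass. A change was called where limma's p, adjusted by Benjamini and Hochberg's method over all tested genes, was below 0.05, and the log2 fold changes below are on that scale, which understates changes of low genes. Estimated depth was 14.9 to 47.2 fragments per kilobase at 1 FPKM, with vehicle library 1 the deepest. The siRNA target STAT3 held 15.1 to 16.4 FPKM in the vehicle group, 2.58 to 3.02 FPKM in the siRNA group and 10.5 to 10.9 FPKM in the WB436B group. The summed level of 10 ductal and epithelial markers was 1549 to 1582 FPKM in vehicle libraries, 1400 to 1480 FPKM in siRNA libraries and 1222 to 1362 FPKM under WB436B. Single markers moved both ways under this sum. After the siRNA 4 of the 10 were called lower and 5 higher (22.3% and 29.8% of all tested genes). Under WB436B 4 were called lower and 3 higher (41.1% and 24.9% of all tested genes). SMAD4 and CDKN2A, both known to be deleted in BxPC3, were listed at 0 in all 9 libraries. Of 15 markers of other cell types, CELA3A, INS and GCG were at 0 in every library, and the sum of the 15 was 7.92 to 9.55, 17.4 to 21.3 and 4.44 to 4.72 FPKM in the same order of groups. The higher sum after the siRNA was mostly PRSS1, a trypsinogen gene, with mean levels of 1.05, 12.7 and 0.518 FPKM, and its part in the results below was not tested.

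Most of the tested hypoxia response genes were lower under both treatments. After STAT3 siRNA 6 of the 8 tested genes fell, HIF1A, VEGFA, NDRG1, EGLN3, BNIP3L and SLC2A1, and none rose. EGLN3 was tested because its vehicle libraries reached 1 FPKM, which no treated library did, so a decrease was built into its selection, and without it the count was 5 of 7. Of all tested genes 22.3% were called lower and 29.8% higher in that comparison. Under WB436B 7 of the 8 fell, the same 6 and EGLN1, while ADM rose (6 of 7 without EGLN3), against 41.1% of all tested genes called lower and 24.9% higher. Of all calls under WB436B 37.7% were upward, and this share depended on scaling, at 53.03% under quantile normalization and 49.9% with median-of-ratios scaling. The median log2 fold change of the 8 genes was -0.83 after the siRNA, where that of all tested genes was 0.06, and -0.95 under WB436B, where that of all tested genes was -0.13. With a filter of 5 FPKM, which tests 7 of the genes and leaves out EGLN3, these medians were -0.75 and -0.77. Those of all tested genes were then 0.07 and 0.02. Both comparisons share the vehicle libraries, so they are not independent of each other. In bulk RNA, fewer cells of a kind and less RNA per cell cannot be told apart.

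**Figure D1:**
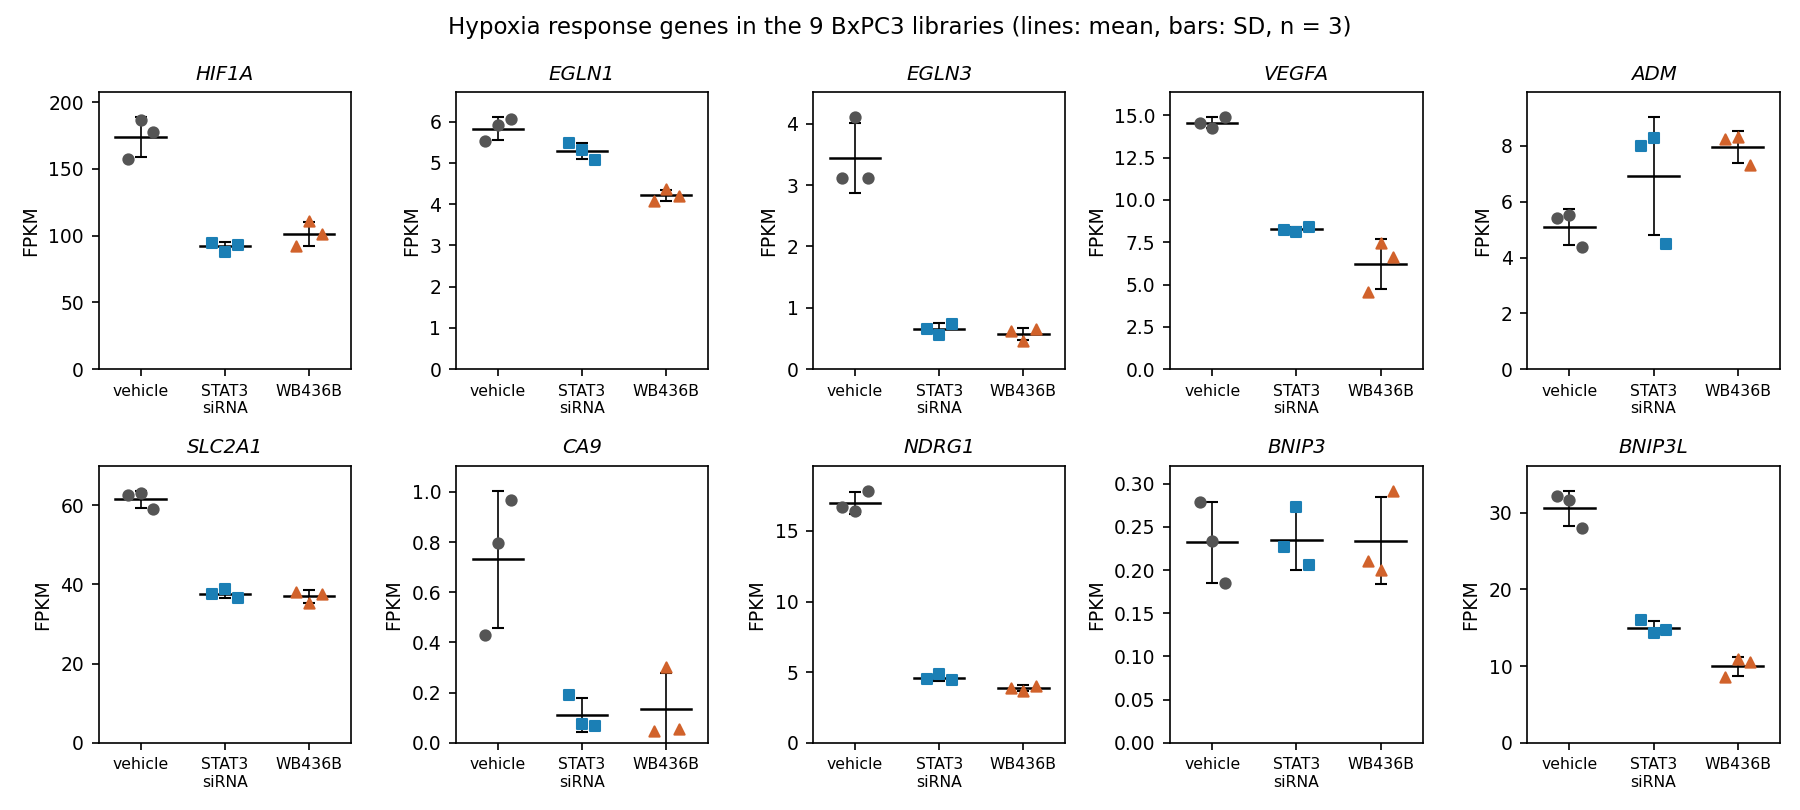
FPKM of the 10 hypoxia response genes in each of the 9 libraries, with points for libraries, a line for the group mean and bars for the SD of 3 libraries, and a separate linear axis for each gene. All libraries of both treated groups lie below all vehicle libraries for HIF1A, VEGFA, NDRG1, CA9, EGLN1, EGLN3, BNIP3L and SLC2A1, but not for ADM and BNIP3. Of all tested genes 25.3% lie so after the siRNA and 43.3% under WB436B, and the share for both at once was not counted. For EGLN3 the separation was fixed by its selection through the vehicle libraries. CA9 was not tested and rests on about 33 fragments or fewer per library.

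HIF1A, the oxygen-regulated subunit itself, was the most abundant of the 10 transcripts in each group. The 3 vehicle libraries held 157, 187 and 177 FPKM, the STAT3 siRNA libraries 94.7, 88.1 and 93.1 FPKM, and the WB436B libraries 92.4, 111 and 101 FPKM. Every vehicle library lay above every treated one, and both treated groups overlapped. HIF1A fell 1.89-fold after the siRNA (log2 fold change -0.91, SE 0.0810, adjusted p = 3.8e-05 in limma), from a mean of 174 ± 14.9 to 92.0 ± 3.45 FPKM (SD, n = 3 libraries). Under WB436B the mean was 101 ± 9.16 FPKM, 58.3% of vehicle (log2 fold change -0.77, adjusted p = 4.6e-05). WB436B differed from the siRNA by 0.14 on the log2 scale with a 95% interval of -0.05 to 0.32 (adjusted p = 0.17), or by 0.37 with median-of-ratios scaling, where it was called (adjusted p = 0.0030). An exact permutation test of 3 against 3 libraries gave p = 0.1 for HIF1A against vehicle in each treatment, the smallest p that such a design allows. About 5912 to 29386 fragments per library stood behind these values, and 5.14% of the exon bases of HIF1A are shared with other annotated genes, among them its antisense transcript HIF1A-AS1.

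The prolyl hydroxylase genes EGLN1 and EGLN3, which encode PHD2 and PHD3, differed in the size of their change. EGLN3 stood at 3.11, 4.10 and 3.12 FPKM under vehicle, at 0.662, 0.550 and 0.741 FPKM after the siRNA, and at 0.618, 0.466 and 0.655 FPKM under WB436B. All treated libraries lay below 1 FPKM and all vehicle libraries above 3 FPKM. Its mean was 5.29-fold lower after the siRNA (adjusted p = 1.0e-05 in limma) and 5.94-fold lower under WB436B (adjusted p = 3.2e-06). Since EGLN3 passed the filter through its vehicle libraries alone, this separation was fixed by its selection. The p-values are therefore no independent test of a decrease. On the log2(FPKM + 1) scale these are changes of -1.42 and -1.49, and as little as 25 fragments per library were behind a treated value. EGLN1, the main oxygen sensor of the family, stood at 5.52, 5.91 and 6.06 FPKM under vehicle, at 5.48, 5.32 and 5.08 FPKM after the siRNA, and at 4.09, 4.36 and 4.19 FPKM under WB436B. It fell under WB436B (log2 fold change -0.39, adjusted p = 0.00020), while its change after the siRNA did not pass (-0.12, 95% interval -0.24 to 0.00, adjusted p = 0.087). That siRNA value passed with median-of-ratios scaling (-0.18, adjusted p = 0.017) and quantile normalization (-0.16, adjusted p = 0.030), which both centre the genes near 0. The lowest vehicle library of EGLN1, 5.52 FPKM, was close to the highest siRNA library, 5.48 FPKM, without overlap.

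The secreted vessel factors VEGFA and ADM went in opposite directions under WB436B. VEGFA, the main growth factor of blood vessels, stood at 14.6, 14.2 and 14.9 FPKM under vehicle, at 8.25, 8.10 and 8.41 FPKM after the siRNA, and at 4.57, 7.43 and 6.62 FPKM under WB436B. The 3 groups did not overlap, and WB436B library 1 was the lowest of all. VEGFA fell to 56.7% of the vehicle mean after the siRNA (log2 fold change -0.75, SE 0.131, adjusted p = 0.0016) and to 42.6% under WB436B (-1.13, adjusted p = 8.3e-05). The coefficient of variation of VEGFA was 23.8% among the WB436B libraries, against SDs of 0.320 and 0.156 FPKM around means of 14.6 and 8.26 FPKM in the vehicle and siRNA groups.

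ADM encodes adrenomedullin, a vasodilating peptide. Its libraries held 5.42, 5.52 and 4.36 FPKM under vehicle, 8.0, 8.27 and 4.50 FPKM after the siRNA, and 8.25, 8.33 and 7.30 FPKM under WB436B. Library 3 was the lowest of its group in all 3 groups, and siRNA library 3 lay within the vehicle range. ADM rose under WB436B (log2 fold change 0.56, SE 0.188, adjusted p = 0.029). After the siRNA the change was 0.34 with a 95% interval of -0.09 to 0.77 (adjusted p = 0.16, limma), and the exact permutation test gave p = 0.3. The call under WB436B was lost without vehicle library 3 (0.47, adjusted p = 0.090), without WB436B library 1 (0.53, adjusted p = 0.073) or library 2 (0.53, adjusted p = 0.075), and with no filter (adjusted p = 0.070). Without siRNA library 3 the siRNA change was 0.59 and was called (adjusted p = 0.0025), and with library 3 of every group left out, an alternative chosen after the values were seen, it was 0.50 (adjusted p = 0.0022).

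SLC2A1 encodes GLUT1, the basal glucose transporter. It stood at 62.5, 63.0 and 59.0 FPKM under vehicle, at 37.6, 38.8 and 36.5 FPKM after the siRNA, and at 38.1, 35.2 and 37.5 FPKM under WB436B. The treated libraries of both groups occupied one range, 35.2 to 38.8 FPKM, well below the lowest vehicle library. The log2 fold change was -0.69 (SE 0.0470, adjusted p = 8.6e-06) after the siRNA and -0.72 (adjusted p = 2.8e-06) under WB436B. The difference between the treatments was -0.03 with a 95% interval of -0.13 to 0.08 (adjusted p = 0.65) with the deposited values. Its sign depended on scaling: it was called at 0.20 with median-of-ratios scaling (adjusted p = 0.0058) and at -0.16 with quantile normalization (adjusted p = 0.047).

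CA9 encodes carbonic anhydrase IX, a cell-surface enzyme of pH control that is widely used as a marker of hypoxia. It was near the limit of detection at 0.431, 0.795 and 0.967 FPKM under vehicle, about 33, 20 and 23 fragments. After the siRNA it was 0.189, 0.0729 and 0.0677 FPKM, about 6, 2 and 2 fragments, and under WB436B 0.0452, 0.301 and 0.0567 FPKM, about 1, 9 and 2 fragments. Every treated library lay below every vehicle library. In the fit with no filter the log2 fold change was -0.63 after the siRNA (adjusted p = 0.013) and -0.60 under WB436B (adjusted p = 0.011). With a pseudocount of 0.1 FPKM as well, added after the gene had failed the filter, the changes were -1.97 (adjusted p = 0.021) and -1.93 (adjusted p = 0.015). ARHGEF39, on the opposite strand, overlaps 38.5% of the exon bases of CA9. Its mean was 2.57, 2.37 and 2.05 FPKM in the 3 groups with no call (adjusted p = 0.58 after the siRNA and 0.12 under WB436B), and since strandedness is not given, reads of the pair cannot be told apart.

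NDRG1, a stress-responsive gene that hypoxia induces in many cell types, had the largest decrease of the 8 tested genes on the log2(FPKM + 1) scale in both comparisons against vehicle, although the ratio of means was larger for EGLN3. It stood at 16.7, 16.4 and 17.8 FPKM under vehicle, at 4.51, 4.88 and 4.47 FPKM after the siRNA, and at 3.88, 3.64 and 4.05 FPKM under WB436B. The 3 groups were separate, with both treated groups far below vehicle. Its mean was 3.67-fold lower after the siRNA (log2 fold change -1.68, SE 0.0561, adjusted p = 3.2e-07) and 4.40-fold lower under WB436B (-1.89, adjusted p = 7.1e-08). At least 265 fragments per library stood behind NDRG1, and none of its exon bases is shared with another annotated gene.

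BNIP3 and BNIP3L encode related receptors of mitophagy, the removal of mitochondria by autophagy. BNIP3L (NIX) stood at 32.1, 31.7 and 28.0 FPKM under vehicle, at 16.0, 14.3 and 14.6 FPKM after the siRNA, and at 8.54, 10.9 and 10.5 FPKM under WB436B. Its 3 groups did not overlap, with vehicle highest and WB436B lowest. BNIP3L fell to 49.0% of vehicle after the siRNA (log2 fold change -0.98, SE 0.0930, adjusted p = 5.3e-05) and to 32.6% under WB436B (-1.53, adjusted p = 1.9e-06). BNIP3 was low everywhere, at 0.279, 0.234 and 0.185 FPKM under vehicle, 0.227, 0.274 and 0.206 FPKM after the siRNA, and 0.211, 0.200 and 0.292 FPKM under WB436B, or about 8 to 40 fragments. All 3 groups overlapped, and the fit with no filter gave 0.00 in both comparisons (95% interval -0.11 to 0.12 after the siRNA and -0.12 to 0.12 under WB436B) on the log2(FPKM + 1) scale. A change of BNIP3 larger than these intervals was not seen on that scale, and a smaller one cannot be told from none. At this level the added 1 FPKM compresses ratios, so the intervals do not exclude a sizeable relative change of BNIP3, up or down.

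**Figure D2:**
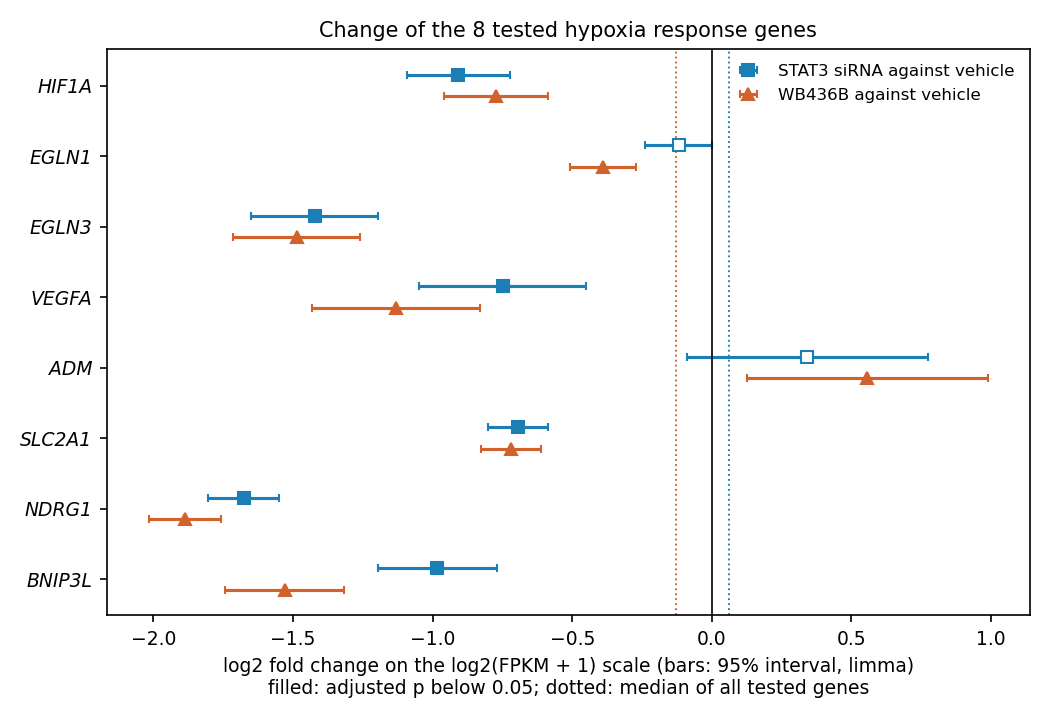
Log2 fold change of log2(FPKM + 1) against vehicle for the 8 tested hypoxia response genes, with 95% intervals from limma, after STAT3 siRNA and under WB436B. NDRG1 lies farthest to the left at -1.68 and -1.89, and ADM is the gene to the right of 0, with an interval that crosses 0 after the siRNA.

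Without regard to the model, all 3 siRNA libraries lay below all 3 vehicle libraries for 7 of the 8 tested genes, EGLN3 among them, where 25.3% of all tested genes did so. Under WB436B this also held for 7 of the 8, where 43.3% of all tested genes did so. ADM was the exception in both. EGLN3 was counted in both, which its selection through the vehicle libraries alone fixed in advance. Without it HIF1A, VEGFA, NDRG1, EGLN1, BNIP3L and SLC2A1 remained in both. Relative to the median of all tested genes, HIF1A changed by -0.97 after the siRNA and -0.65 under WB436B, NDRG1 by -1.74 and -1.76, and SLC2A1 by -0.76 and -0.59. The 6 siRNA calls were kept under each of the alternatives in which the gene was tested, and of the 8 WB436B calls all but that of ADM were. EGLN3 was not tested with the filter of 5 FPKM.

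The genes kept much of their order of abundance between groups. FPKM is per length, so levels of different genes can be set beside each other on it. Under vehicle HIF1A was in the top 1.14% of tested genes and SLC2A1 in the top 3.75%, followed by BNIP3L (8.52%), NDRG1 (16.5%), VEGFA (19.2%), EGLN1 (44.9%), ADM (49.5%) and EGLN3 (62.0%), with CA9 and BNIP3 below them. The libraries of EGLN1 and ADM overlapped there, and those of the other neighbours in the order did not. After the siRNA ADM overlapped with its neighbours VEGFA and EGLN1, and under WB436B the libraries of ADM overlapped with those of VEGFA and those of BNIP3 with those of CA9. NDRG1 moved from the fourth place under vehicle to the seventh in both treated groups.

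The direct comparison of WB436B with STAT3 siRNA asks where both treatments differ. Of the 8 tested genes 4 were lower under WB436B, BNIP3L, VEGFA, NDRG1 and EGLN1, and none was higher. That is against 44.1% of all tested genes called lower and 20.0% called higher, and the median of the 8 genes was -0.14 where that of all tested genes was -0.18. BNIP3L differed most (log2 difference -0.55, SE 0.0930, adjusted p = 0.00092), and its call was kept under every alternative run. EGLN1 differed by -0.27 (adjusted p = 0.0018), NDRG1 by -0.21 (adjusted p = 0.010) and VEGFA by -0.38 (95% interval -0.68 to -0.08, adjusted p = 0.031). The VEGFA call was lost when any one of the 3 siRNA libraries was left out (adjusted p = 0.061 to 0.075), and without WB436B library 1 the difference was -0.21. With median-of-ratios scaling BNIP3L alone was lower, and HIF1A and SLC2A1 were higher. With quantile normalization BNIP3L and SLC2A1 were lower and EGLN3 was higher (0.35, adjusted p = 0.010). Of all 12747 tested genes 3916 were called lower and 4019 higher with median-of-ratios scaling, and 3585 and 3583 with quantile normalization. These scalings moved the median of all tested genes from -0.18 to about 0, and median-of-ratios scaling moved the upward share of all calls from 31.2% to 50.6%. EGLN3 differed by -0.06 (95% interval -0.29 to 0.16, adjusted p = 0.59) and ADM by 0.21 (95% interval -0.22 to 0.65, adjusted p = 0.34) with the deposited values.

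The genes that set HIF activity, a list of 17 subunits, hydroxylases, ubiquitin ligase parts, coactivators and chaperones, was fitted in the same way. Of its 15 tested genes 2 fell (13.3%, against 22.3% of all tested genes) and 7 rose (46.7%, against 29.8%) after the siRNA, with a median log2 fold change of 0.14. Under WB436B 6 fell (40.0%) and 4 rose (26.7%), near the 41.1% and 24.9% of all tested genes, with a median of -0.17. Between the treatments 9 were lower under WB436B (60.0%, against 44.1%) and 4 higher (26.7%, against 20.0%). EPAS1, which encodes HIF-2 alpha, stood at 30.2, 31.9 and 27.9 FPKM under vehicle, at 22.5, 23.0 and 21.3 FPKM after the siRNA, and at 11.6, 11.1 and 12.3 FPKM under WB436B. The 3 groups were separate, and EPAS1 fell by 0.41 (adjusted p = 0.00062) and by 1.29 (adjusted p = 5.3e-07) on the log2 scale. ARNT, the shared beta subunit, fell from 5.66 ± 1.26 FPKM to 3.37 ± 0.175 FPKM after the siRNA (adjusted p = 0.0043) and to 3.05 ± 0.345 FPKM under WB436B (adjusted p = 0.0011).

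Several brakes on HIF moved in opposite directions under both treatments. HIF1AN (FIH), the asparaginyl hydroxylase that blocks coactivator binding, rose from 6.47 ± 0.197 to 9.80 ± 0.438 FPKM after the siRNA (adjusted p = 4.0e-05) and fell to 4.01 ± 0.0845 FPKM under WB436B (adjusted p = 1.2e-05). CITED2, which competes with HIF for the same coactivators, rose from 10.2 ± 1.12 to 17.0 ± 2.15 FPKM (adjusted p = 0.0081) and fell to 5.56 ± 1.45 FPKM (adjusted p = 0.0027). P4HTM, a transmembrane prolyl hydroxylase, rose by 0.37 on the log2 scale (adjusted p = 0.012) and fell by 0.62 (adjusted p = 0.00047). The differences between the treatments were -1.11 for HIF1AN, -1.48 for CITED2 and -0.99 for P4HTM (adjusted p = 5.8e-07, 7.8e-05 and 3.4e-05). VHL, the recognition subunit of the ligase, was 8.49 ± 0.685 FPKM under vehicle and 7.91 ± 0.276 FPKM after the siRNA (adjusted p = 0.29), and fell to 3.27 ± 0.177 FPKM under WB436B (log2 fold change -1.15, adjusted p = 1.2e-06).

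Among the partners of VHL in the ligase, ELOC (log2 fold change 0.61, adjusted p = 0.00065) and CUL2 (0.29, adjusted p = 0.0010) rose under WB436B, and RBX1 rose after the siRNA (0.51, adjusted p = 0.0012). ELOB passed in neither comparison (adjusted p = 0.085 and 0.14). EGLN2, the third hydroxylase of its family, held 7.83, 7.84 and 7.73 FPKM as group means (adjusted p = 0.93 and 0.97). The coactivators EP300 and CREBBP each rose by 0.33 after the siRNA (adjusted p = 0.010 and 0.0067) and did not pass under WB436B (adjusted p = 0.11 and 0.62). HSP90AA1 and HSP90AB1, chaperones that hold HIF-1 alpha among many clients, rose under WB436B from 226 ± 10.5 to 608 ± 9.12 FPKM and from 389 ± 11.1 to 886 ± 5.15 FPKM (adjusted p = 3.1e-07 and 8.4e-08). After the siRNA HSP90AB1 rose by 0.11 (adjusted p = 0.039), which is 0.04 above the median of all tested genes. HSP90AA1 stood at 239 ± 17.8 FPKM there (adjusted p = 0.29). HIF3A and ARNT2 were too low to be tested, with ARNT2 at mean levels of 0.376, 0.263 and 0.167 FPKM.

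**Figure D3:**
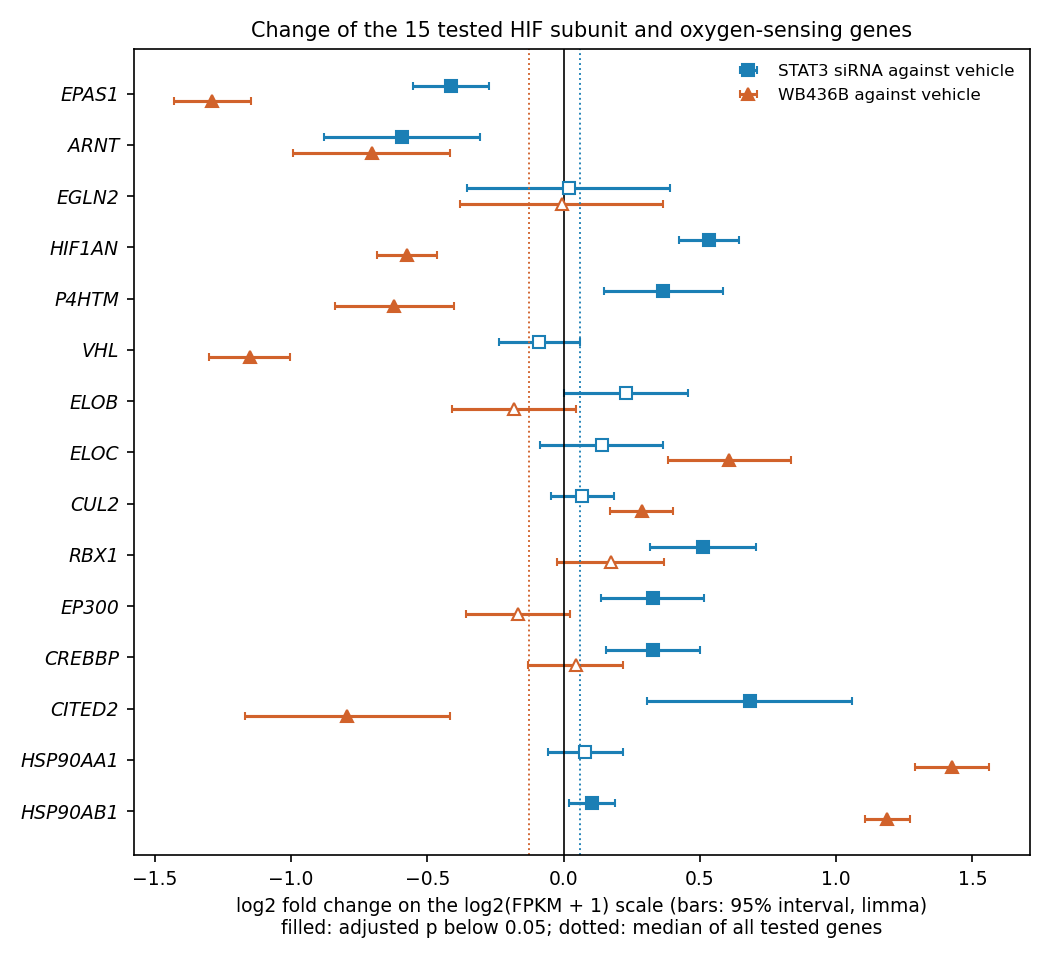
Log2 fold change of log2(FPKM + 1) against vehicle with 95% intervals from limma for the 15 tested genes of HIF subunits and oxygen sensing, after STAT3 siRNA and under WB436B. HIF1AN, CITED2 and P4HTM lie to the right of 0 after the siRNA and to the left under WB436B, and both HSP90 genes lie far to the right under WB436B alone.

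Further HIF targets, listed by textbook role, did not all follow the 10 genes. Of 22 tested genes of pH control, matrix, survival and regulation, out of 26 listed, 13 fell and 4 rose after the siRNA (59.1% and 18.2%, against 22.3% and 29.8% of all tested genes, median -0.37). Under WB436B 14 fell and 1 rose (63.6% and 4.5%, against 41.1% and 24.9%, median -0.51). CA12, LOXL2 and MIR210HG reached 1 FPKM in vehicle libraries alone and so were tested through the group where they are high. Without these 3, 10 of 19 fell after the siRNA and 11 of 19 under WB436B. With a filter of 5 FPKM 6 of 10 fell after the siRNA (median -0.44) and 5 of 10 under WB436B (median -0.12). Of all 7042 genes tested with that filter 1756 and 2412 were called lower. With quantile normalization 13 of 22 fell after the siRNA (median -0.40) and 10 of 22 under WB436B (median -0.23). Of all 12747 tested genes 3076 and 3660 were called lower with that normalization. BHLHE40 (DEC1), a repressor induced by hypoxia, fell from 131 ± 3.21 FPKM to 36.6 ± 1.23 FPKM after the siRNA and to 38.7 ± 0.633 FPKM under WB436B (adjusted p = 2.8e-08 in both). DDIT4 (REDD1), an inhibitor of mTORC1 signalling, fell from 80.6 ± 5.60 FPKM to 30.1 ± 0.701 FPKM (adjusted p = 1.2e-06) and to 13.4 ± 0.900 FPKM (adjusted p = 4.1e-08). PLOD2, a collagen lysyl hydroxylase, fell by 0.79 and 0.42 on the log2 scale. CA12, another carbonic anhydrase of the cell surface, averaged 1.70, 0.458 and 0.586 FPKM in the 3 groups. WSB1 and BHLHE41 were also named by the smallest p under WB436B and fell by 1.16 and 1.05.

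Glycolysis and energy genes were mixed. Of 19 tested genes, out of 22 listed, 10 fell and 4 rose after the siRNA (52.6% and 21.1%, against 22.3% and 29.8% of all tested genes, median -0.14). Under WB436B 5 fell and 5 rose (26.3% each, against 41.1% lower and 24.9% higher, median 0.03). The number that rose under WB436B was 9 with median-of-ratios scaling, 6 with equal totals and 4 with quantile normalization. Of all 12747 tested genes 4219, 3538 and 4133 were called higher in these settings. PGK1, phosphoglycerate kinase, fell from 128 ± 1.29 to 95.2 ± 2.75 FPKM after the siRNA (adjusted p = 2.5e-05) and stood at 131 ± 1.14 FPKM under WB436B. ALDOC, an aldolase, fell by 0.98 after the siRNA (adjusted p = 2.6e-05) and by 0.54 under WB436B (adjusted p = 0.00043). The lactate exporter SLC16A3 fell by 0.59 after the siRNA (adjusted p = 3.7e-05). The kinase PDK1, which limits the use of pyruvate in the mitochondria, fell by 0.53 there (adjusted p = 7.0e-05). Under WB436B the glycolytic enzymes PGAM1 and ENO1 rose by 0.30 and 0.44 (adjusted p = 0.00011 and 0.00015), and the glycogen phosphorylase PYGL by 0.28 (adjusted p = 0.00032).

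Of 9 tested genes of vessels, oxygen transport and signalling, out of 17 listed, 5 fell and 4 rose after the siRNA (55.6% and 44.4%, against 22.3% and 29.8% of all tested genes, median -0.17). Under WB436B 3 fell and 5 rose (33.3% and 55.6%, against 41.1% and 24.9%, median 0.39). ANGPTL4 was tested through the vehicle libraries alone and HMOX1 through the siRNA libraries alone, the groups where each is high. Without both, 4 of 7 fell and 3 rose after the siRNA, and 1 fell and 5 rose under WB436B. Quantile normalization left 1 of the 3 decreases under WB436B, and it called 3660 of all 12747 tested genes lower there. TGFA, a ligand of the EGF receptor, fell to 10.6 ± 0.421 FPKM after the siRNA and rose to 26.9 ± 0.488 FPKM under WB436B, from 14.5 ± 0.762 FPKM. EDN1, the precursor of the vasoconstrictor endothelin, rose from 0.828 ± 0.0499 to 8.25 ± 0.785 FPKM under WB436B (adjusted p = 5.6e-07), and PLAUR, the urokinase receptor, rose by 1.37 (adjusted p = 5.3e-06). The log2 fold change after the siRNA was -0.86 for ANGPTL4, a lipase inhibitor, and 0.43 for HMOX1, which breaks down haem.

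**Figure D4:**
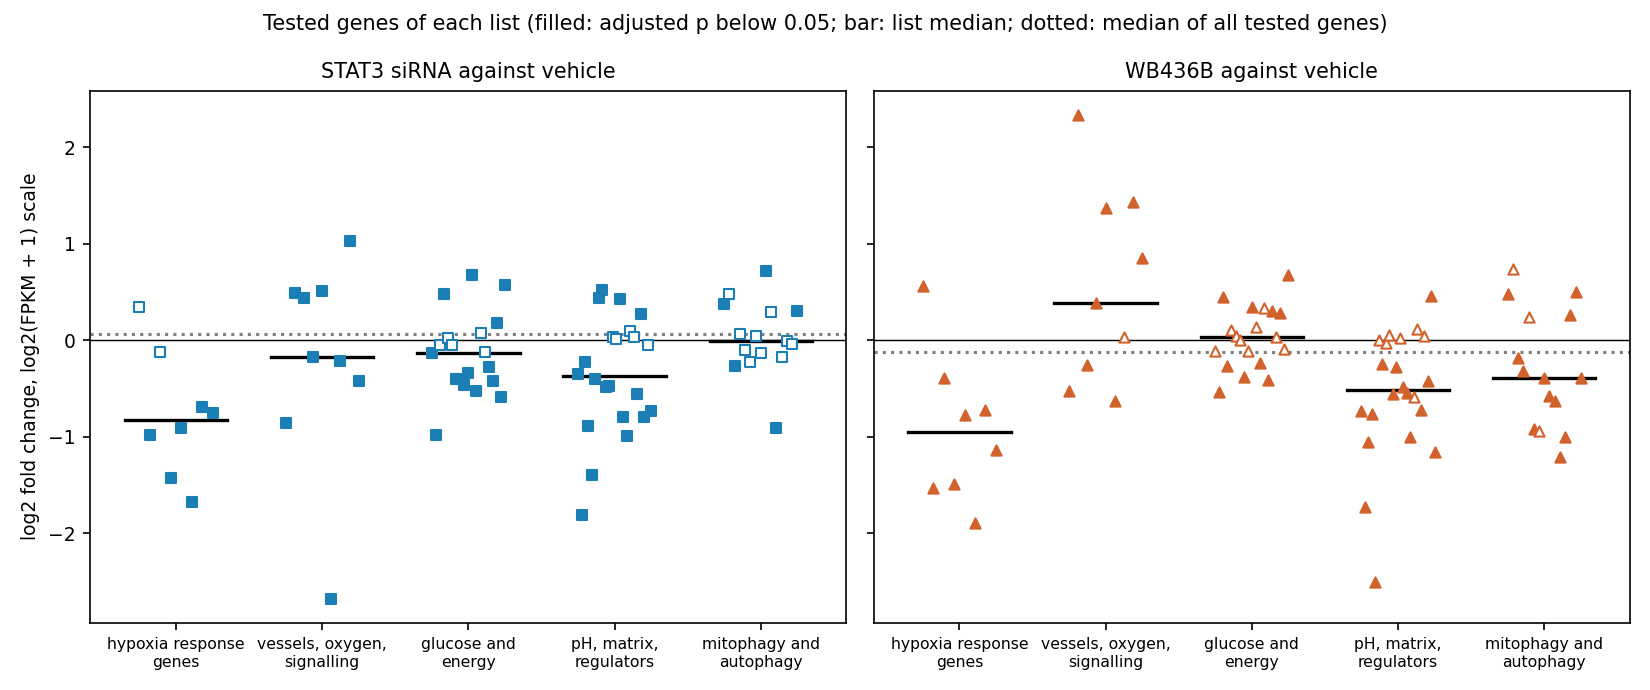
Log2 fold change against vehicle of every tested gene in the hypoxia response genes and 4 related lists, with points for genes (filled where called), a bar for the list median and a dotted line for the median of all 12747 tested genes (0.06 after STAT3 siRNA and -0.13 under WB436B). The medians of the hypoxia response genes (-0.83 and -0.95) and of the pH, matrix, survival and regulator list (-0.37 and -0.51) lie below that line in both comparisons. They include EGLN3 in the first list and CA12, LOXL2 and MIR210HG in the second, tested through the vehicle libraries alone. With a filter of 5 FPKM, which leaves out these and other genes, they were -0.75 and -0.77, and -0.44 and -0.12. The medians of all tested genes were then 0.07 and 0.02.

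Genes that work with BNIP3 and BNIP3L in autophagy included both increases and decreases. Of 15 tested, out of 16 listed, 2 fell and 3 rose after the siRNA (13.3% and 20.0%, against 22.3% and 29.8% of all tested genes, median -0.00). With median-of-ratios scaling 4 fell, and with library 3 of every group left out 1 fell. Of all 12747 tested genes 3275 and 2384 were called lower in these settings. Under WB436B 9 fell and 3 rose (60.0% and 20.0%, against 41.1% and 24.9%, median -0.39). With median-of-ratios scaling 7 fell and 5 rose, where 4228 of all 12747 tested genes were called lower and 4219 higher. With quantile normalization 7 fell and 3 rose, where 3660 of all tested genes were called lower and 4133 higher. OPTN, an autophagy receptor, fell from 16.9 ± 1.01 to 8.50 ± 0.170 FPKM after the siRNA (adjusted p = 3.2e-06) and to 6.72 ± 0.200 FPKM under WB436B (adjusted p = 3.3e-07). SQSTM1 (p62), another receptor, rose from 73.1 ± 0.595 to 90.4 ± 3.67 FPKM after the siRNA and fell to 55.4 ± 0.320 FPKM under WB436B (adjusted p = 0.00026 and 2.9e-05). PINK1, the kinase that marks damaged mitochondria, fell from 5.52 ± 0.0999 to 2.25 ± 0.144 FPKM under WB436B (adjusted p = 4.1e-06). RHEB, an activator of mTORC1, rose from 27.6 ± 0.909 to 39.6 ± 2.86 FPKM there (adjusted p = 9.9e-05). After the siRNA MAP1LC3A, an autophagosome protein, rose by 0.72 (adjusted p = 0.0027) and BECN1, which starts autophagosome formation, fell by 0.26 (adjusted p = 0.0064).

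Of the antisense transcripts at the HIF1A locus, HIF1A-AS2 was higher and HIF1A-AS1 lower under WB436B, where HIF1A was lower. HIF1A-AS2 stood at 0.237, 0.304 and 0.284 FPKM under vehicle, at 0.550, 0.338 and 0.233 FPKM after the siRNA, and at 0.995, 1.34 and 1.19 FPKM under WB436B. All WB436B libraries lay above all others, while vehicle and siRNA overlapped. In the fit with no filter HIF1A-AS2 rose by 0.77 under WB436B (adjusted p = 0.00079) and changed by 0.10 after the siRNA (adjusted p = 0.56), and the difference between the treatments was 0.67 (adjusted p = 0.0019). These values rest on about 2 to 13 fragments per library, and HIF1A-AS2 shares no exon bases with another annotated gene. HIF1A-AS1 stood at 0.376, 0.693 and 0.853 FPKM under vehicle, at 0.746, 0.352 and 0.462 FPKM after the siRNA, and at 0, 0.179 and 0.0872 FPKM under WB436B. In the fit with no filter it fell by 0.58 under WB436B (adjusted p = 0.015) and changed by -0.11 after the siRNA (adjusted p = 0.66), and 17.9% of its exon bases lie in HIF1A on the other strand. SLC2A1-AS1 held 0.230 to 0.272 FPKM under vehicle and 0 to 0.125 FPKM in the treated libraries. EGLN3-AS1 was listed at 0 in all libraries but WB436B library 3 (0.0951 FPKM), BNIP3P1, a copy of BNIP3, was at 0 in all, and HIF1A-AS3 was not matched.

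**Figure D5:**
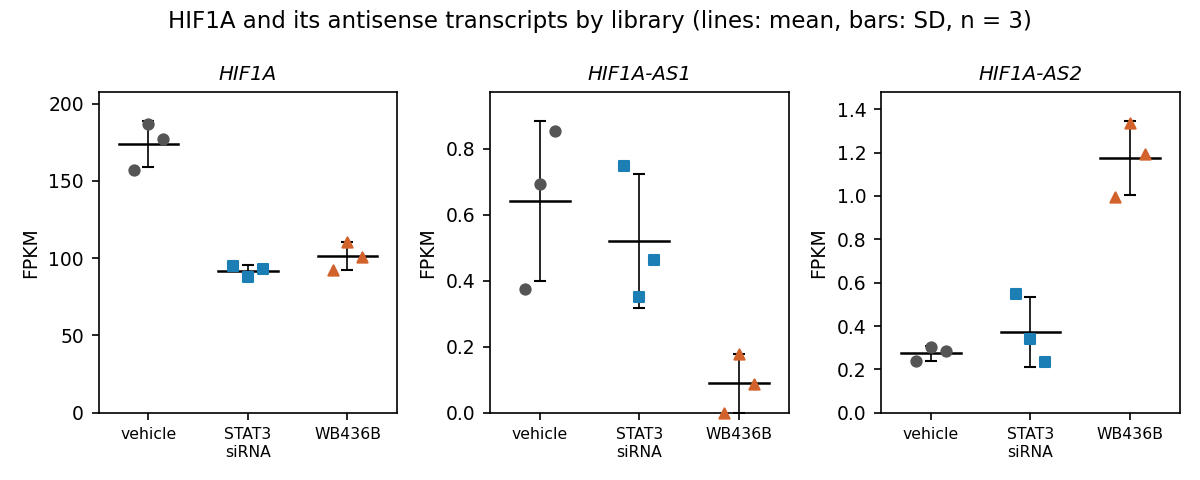
FPKM of HIF1A and its antisense transcripts HIF1A-AS1 and HIF1A-AS2 in the 9 libraries, with points for libraries, a line for the group mean and bars for the SD of 3 libraries cut at 0, each gene on its own linear axis. HIF1A is lower in both treated groups, whereas HIF1A-AS2 is higher under WB436B alone, at 0.995 to 1.34 FPKM.

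Genes with the most similar profile were sought over the 9 libraries by the Euclidean distance of log2(FPKM + 1) centred on each gene's mean. Nearest to HIF1A were BACH1 (distance 0.218, Pearson r 0.987), ETS2 (0.221, 0.984) and STARD4 (0.263, 0.980). BACH1, a haem-binding repressor, averaged 11.1, 5.15 and 5.74 FPKM in vehicle, siRNA and WB436B, and ETS2, an ETS-family transcription factor, 48.9, 25.1 and 27.3 FPKM. Nearest to VEGFA were KHNYN (0.304, 0.979), CCDC120 (0.334, 0.977) and AL645929.1 (0.343, 0.983), and KHNYN averaged 18.4, 11.7 and 7.70 FPKM in the 3 groups. These likenesses are descriptions over libraries that share their groups and depths.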

How the data were processed

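RNA-seq of BxPC3 cells was analysed from one table of FPKM values for 9 libraries, which the authors deposited with a column per library and human Ensembl identifiers with symbols. The submitters' processing notes list Bowtie 0.12.2, with no role, and a mouse build, mm8, so it is uncertain which build underlies the human identifiers. The sources used here do not give the FPKM program, the annotation, the strandedness or any filter. FPKM is relative to the library total, so abundant genes that change shift all others. Genes that reached 1 FPKM in 3 or more libraries were fitted as log2(FPKM + 1) in R 4.3.3 with limma 3.58.1 (trended variance, group means without a block, 6 residual degrees of freedom). Tests were two-sided, with Benjamini-Hochberg adjustment over 12747 genes. The script was tested on simulated data. SE stands for the standard error of a fold change on the log2 scale, and ± for an SD over 3 libraries.

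All 10 genes were named. From each related list the called genes with the 4 smallest adjusted p per comparison against vehicle were named, as were every gene of the oxygen-sensing list, the 3 genes nearest to HIF1A and to VEGFA, and antisense or copy genes. One gene that the rule takes is not reported here. The 10 genes and the lists were chosen with earlier results of these data known. Depth was inferred from the smallest steps of FPKM in genes with 1 transcript in GENCODE 29, which held 96.5% of identifiers, and approximate fragments follow from it and describe counting error alone. Exon overlap came from GENCODE 29 and promoters from RefSeq. The alternatives changed the pseudocount (0.1 or 0.5), the filter (none or 5 FPKM), the scaling (median-of-ratios, quantile or equal totals), the variance model (no trend or robust), the groups in the fit, and the libraries, each left out in turn, and added a replicate block, also with median-of-ratios scaling. Leaving out library 3 of every group, and no filter with a pseudocount of 0.1, were added after the data were seen.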

Additional observations from a re-analysis of the deposited data

How the results depend on the processing

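The 6 decreases after STAT3 siRNA and the 7 under WB436B were called under every alternative in which the gene was tested. Both counts include EGLN3, whose decrease was built into its selection through the vehicle libraries. EGLN3 was not tested with the filter of 5 FPKM. The log2 fold change of EGLN3 ran over these alternatives from -2.23 to -1.32 after the siRNA and from -2.38 to -1.14 under WB436B. The filter of 5 FPKM, which tests fewer genes, called 4138, 4860 and 4629 of all genes in place of 6638, 8402 and 8175 in the comparisons of siRNA with vehicle, WB436B with vehicle and WB436B with siRNA. Among the 8 tested genes, the number higher after the siRNA was 0 and became 1 (ADM) with library 3 of every group left out, and it was 0 to 1 with single libraries left out. The number higher under WB436B went from 1 to 0 with no filter, and from 0 to 1 over single libraries left out. Between the treatments the number lower went from 4 to 1 with median-of-ratios scaling, to 2 with quantile normalization and to 1 with the replicate block plus median-of-ratios scaling, and the number higher from 0 to 2, 1 and 3. Of all 12747 tested genes 3916, 3585 and 3808 were called lower in these settings, and 4019, 3583 and 3893 higher. Signs that turned between WB436B and siRNA were those of NDRG1 (0.0089 with quantile normalization, against -0.02 with median-of-ratios scaling), EGLN3 (0.025 with median-of-ratios scaling, with or without the block, and 0.35 with quantile normalization), SLC2A1 (0.20 with median-of-ratios scaling, with or without the block, and -0.048 to 0.0077 over single libraries left out) and ADM (-0.029 to 0.35 over single libraries left out). EGLN1 lost its call between the treatments with median-of-ratios scaling (-0.08, adjusted p = 0.21) and quantile normalization (-0.07, adjusted p = 0.28), and VEGFA with both scalings (adjusted p = 0.27 and 0.10), with no filter (0.074), in a fit of only both groups (0.062), without any one siRNA library (0.061 to 0.075) and without library 3 of every group (0.11). The cause was not tested. Whether the replicate numbers pair the libraries was not settled. The correlation of deviations between same-numbered libraries was -0.085 to 0.158 over 9 pairs and above 0.1 in 2. Between libraries of different number it was -0.124 to 0.074. For vehicle with siRNA the same-numbered pairs gave 0.042, 0.119 and 0.158, and the other pairs -0.124 to 0.014. The replicate block alone changed no call of the 8 genes and gave 6312, 8152 and 7959 calls over all genes, with ADM at adjusted p = 0.055 after the siRNA and 0.0067 under WB436B. The values of CA9, BNIP3 and the antisense transcripts rest on 40 fragments or fewer per library.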
